A study of Rattus norvegicus with 59 samples.

Results

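The change of the silica effect between 1 and 3 months after inhalation was examined in rat lung. At each month the silica effect was the silica minus air difference in log2 expression, and its change was the effect at 3 months minus the effect at 1 month, which is an interaction of exposure and time. It was taken over every gene of the deposited lung table and over 20 of the 59 libraries of the series, 1 library per rat. The groups were silica lungs at 3 months, air lungs at 3 months, silica lungs at 1 month and air lungs at 1 month, with 5 rats in each. All were male Fischer F344/DuCrl rats, 3 months of age when purchased, kept on a light and dark cycle. Silica rats breathed crystalline silica at 15 mg/m3 in a whole-body chamber for 6 h per day on 5 days, and air rats breathed air in the same way. The labels give a piece of lung from each rat, so the values mix all cells of the tissue, and more cells of a type cannot be told apart from more RNA per cell.

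The hour and day at which lungs were taken are not given by the labels, and month, age and collection cannot be told apart. The table held values in FPKM (fragments of a gene scaled to the length of its transcript and to the mapped total of the library) for 2887 complete gene entries. Of these, 1278 reached 1 FPKM in at least 4 libraries and entered the test. Of the 1039 tested names found in a RefSeq rat gene table, 1030 (99.1%) lay on chromosome 1, so few genes known to lie elsewhere were analysed here. The location of the other tested entries was not known. FPKM sums of the 20 libraries without the entry LOC102553223 lay between 12807 and 16336, and relative depths estimated from steps in low values spanned 1.40-fold. Napsa, a defining protease of alveolar type 2 cells, had 100.7 to 126 FPKM in silica lungs at 3 months and 71.5 to 91.4 FPKM in air lungs, a level that marks lung tissue in these 10 libraries. Striated muscle and heart markers varied between libraries of one group, with summed levels of 13.4 to 177 FPKM in silica lungs at 3 months, 9.91 to 132 FPKM in air lungs at 3 months, 8.20 to 48.9 FPKM in silica lungs at 1 month and 11.6 to 79.0 FPKM in air lungs at 1 month. Silica replicate 5 of 3 months stood apart, with Cox8b at 42.6 FPKM against 4.04 to 7.73 FPKM in the rest of its group, and without it 2 genes passed for the change of the silica effect, as with it.

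Silica particles are taken up by alveolar macrophages, whose lysosomes they damage, and the lung answers with recruited neutrophils, surfactant production by alveolar type 2 cells, oxidant defence enzymes and, later, matrix deposition. A separate set of genes follows the circadian clock. In that loop BMAL1 (gene Arntl) with CLOCK switches on its own repressors and output genes such as Dbp, whose product binds D-box elements, while ROR and REV-ERB receptors act on Arntl, so Arntl and Dbp peak at opposite hours of the day.

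Few genes passed the test of a changed silica effect, although the number of genes that differed between silica and air was larger at 3 months than at 1 month. The change passed in 2 of 1278 genes (0.156%), Dbp downwards and the unannotated entry LOC102553223 upwards (limma on log2(FPKM + 0.5), Benjamini-Hochberg adjustment over the 1278 genes, threshold 0.05). Without air replicate 1 of 3 months 8 genes passed, with Ifngr1, Mef2a and Chd2 downwards, Clpb and Mrps12 upwards and the unannotated LOC691143 downwards besides these 2. Without air replicate 5 of 1 month 4 genes passed, and without silica replicate 3 of 12 months, which enters through the common estimate of spread, 5 did. At an unadjusted p under 0.05 it held for 129 genes (10.1%), 59 of them positive and 70 negative. The median change over all tested genes was 0.0059 on the log2 scale and its median SE was 0.141. Silica against air passed in 233 genes at 3 months (18.2%), 203 higher (15.9%) and 30 lower (2.35%), and in 113 genes at 1 month (8.84%), 108 higher (8.45%) and 5 lower (0.391%). The split into higher and lower moved with scaling. After each library was centred on its median it was 112 higher and 121 lower at 3 months and 38 higher and 27 lower at 1 month, and after quantile normalization 106 and 132 at 3 months and 47 and 30 at 1 month. At 1 month the count was 44 without air replicate 2 and 66 without silica replicate 5. The 2 counts of calls are no test of their difference.

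The silica effects of the 2 months, which share no library, had the same sign in most genes that passed at either month. Of the 233 genes called at 3 months, 210 (90.1%) had the same sign at 1 month. Over all tested genes 62.6% had a positive effect at 3 months and 69.1% at 1 month, and 203 of the 233 calls were higher. Part of the shared sign thus goes with a common upward shift that moved with scaling, and these shares were not recomputed after rescaling. Called with the same sign at both months were 67 genes, 28.8% of the 3-month calls and 59.3% of the 1-month calls. The 3-month calls had a median size of 0.36 at 3 months and 0.18 at 1 month, and the 1-month calls a median size of 0.27 at 3 months and 0.36 at 1 month, each set being largest at the month that chose it. Called at both months in opposite directions were 2 genes, Dbp and LOC102553223. Across all tested genes the 2 effects had a Spearman rho of 0.462, and a Pearson r of 0.306 that was 0.544 without LOC102553223; genes are not independent replicates.

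**Figure D1:**
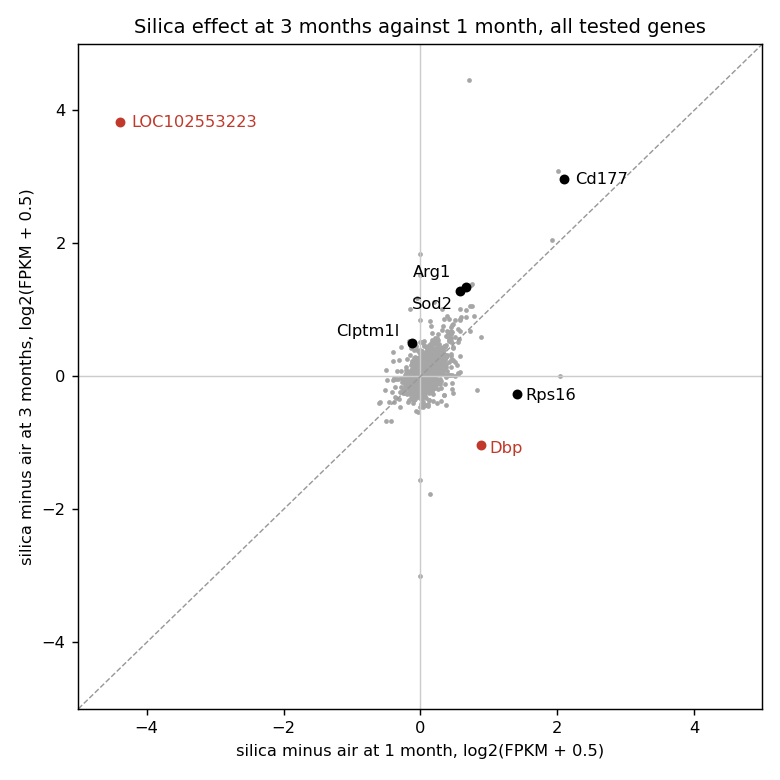
Silica effect at 3 months (vertical axis) against that at 1 month (horizontal axis), each as silica minus air on the log2(FPKM + 0.5) scale, with 1 point per tested gene and a dashed line of equal effects. Red points are the 2 genes whose effect changed past the threshold, Dbp (-1.04 at 3 months, 0.88 at 1 month) and LOC102553223 (3.83 and -4.38), and black points mark other genes named in the text.

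Dbp was the annotated gene whose silica effect changed past the threshold. It encodes the D-site binding protein, a transcription factor whose RNA rises and falls strongly over the day. In ascending order Dbp had 1.42, 2.12, 2.37, 3.08 and 3.15 FPKM in silica lungs at 3 months, against 3.62, 4.58, 5.17, 6.34 and 7.95 FPKM in air lungs. Its 1-month values were 2.73, 3.04, 3.29, 4.35 and 6.40 FPKM in silica lungs, against 1.27, 1.57, 1.61, 2.39 and 2.56 FPKM in air lungs. All silica lungs thus lay below all air lungs at 3 months and above all air lungs at 1 month. At both months the group with the later rat numbers in the labels was the higher one. In air lungs of 3 months the ascending order was also the order of rat number, and in the other groups it was not. Silica and air did not overlap in 162 genes at 3 months (12.7%) and in 113 genes at 1 month (8.84%), and Dbp was the 1 gene of 1278 (0.0782%) without overlap at both months in opposite directions.

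Dbp averaged 2.43 ± 0.719 FPKM in silica lungs and 5.53 ± 1.67 FPKM in air lungs at 3 months (SD, n = 5 each), a log2 difference of -1.04 ± 0.27 (SE; limma adjusted p = 0.00557). At 1 month it averaged 3.96 ± 1.49 FPKM in silica lungs and 1.88 ± 0.560 FPKM in air lungs (SD, n = 5 each), a log2 difference of 0.88 ± 0.27 (limma adjusted p = 0.0327). The change of the silica effect was -1.92 ± 0.39 (95% interval -2.69 to -1.14; limma adjusted p = 0.00561). It passed in the fit without any one of the 20 libraries, with changes of -2.04 to -1.75. The rise at 1 month alone was lost when any of air replicates 1, 2 and 5 or silica replicates 4 and 5 was left out, and under either rescaling (adjusted p = 0.0590 to 0.130 over all alternatives that lost it). The difference of 3 months from 1 month was 1.33 ± 0.27 in air lungs (limma adjusted p = 0.00214) and -0.59 ± 0.27 in silica lungs (0.564).

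Arntl, the clock activator gene, showed values in the other direction that did not pass. It had 6.18, 6.40, 6.60, 6.62 and 8.39 FPKM in silica lungs at 3 months, against 4.37, 5.37, 5.59, 6.30 and 7.55 FPKM in air lungs. In the 1-month lungs it had 5.90, 6.93, 7.15, 7.55 and 7.81 FPKM in silica lungs, against 6.66, 7.06, 7.68, 8.32 and 9.12 FPKM in air lungs. Silica and air overlapped at both months. The change of its silica effect was 0.35 ± 0.16 (limma adjusted p = 0.444, unadjusted p = 0.0370). In air lungs Arntl was lower at 3 months than at 1 month, with a log2 difference of -0.40 ± 0.12 (limma adjusted p = 0.0337), a call lost in 9 of 29 alternatives.

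Within groups, libraries high in Dbp were low in Arntl. Over the 20 libraries, deviations from the group means on the log2 scale had a Pearson r of -0.788 (permutation within groups, p = 0.00021) and a Spearman rho of -0.722 (permutation p = 0.00166) (0.00042 and 0.00166 adjusted over these 2). Without the 2 libraries farthest from the median of Dbp r was -0.703. It was -0.811 over the 10 libraries of 3 months and -0.783 over the 10 libraries of 1 month, and between -0.879 and -0.712 within the 4 groups. The relation therefore held among rats that had the same exposure and the same month. Whether rats of one group were collected at different hours is not recorded in the labels, and the part of collection hour in the Dbp result was not tested. Of 19 clock and clock output genes listed, these 2 were in the table, and Per1, Per2, Nr1d1, Cry1 and the others were not analysed here.

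Promoter sequences of both genes are shown because the clock acts on them through short elements. They are credited to RefSeq on the rat assembly GRCr8 and run 5′ to 3′ on the + strand, with 250 bases before the annotated start and 50 after it. The Dbp window is chr1:105312006-105312305 and the Arntl window, under the RefSeq symbol Bmal1, is chr1:176766078-176766377. Capitals mark the letters TAGGTNA, a form of the core of the ROR element through which ROR and REV-ERB receptors act on Arntl.
Dbp: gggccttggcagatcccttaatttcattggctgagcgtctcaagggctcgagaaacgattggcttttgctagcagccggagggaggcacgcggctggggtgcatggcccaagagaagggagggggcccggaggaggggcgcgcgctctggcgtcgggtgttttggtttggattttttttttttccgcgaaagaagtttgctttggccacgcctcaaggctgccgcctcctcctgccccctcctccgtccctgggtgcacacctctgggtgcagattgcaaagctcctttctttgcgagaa
Arntl: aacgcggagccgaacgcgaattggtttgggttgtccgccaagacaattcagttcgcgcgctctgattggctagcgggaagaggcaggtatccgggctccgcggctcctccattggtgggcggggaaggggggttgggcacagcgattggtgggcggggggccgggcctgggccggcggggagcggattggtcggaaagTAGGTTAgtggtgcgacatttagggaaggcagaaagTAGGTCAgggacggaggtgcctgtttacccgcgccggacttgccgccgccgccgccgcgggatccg
Both strands were searched. The Arntl window held 2 matches, TAGGTTA with its first base at -52 and TAGGTCA at -16 from the start, and a match was present in 2335 of 27457 promoter windows (8.5%). Neither window held the E-box CACGTG, found in 6.65% of windows, or the D-box TTATGNAA, found in 3.54%, and the Dbp window held none of the 3 motifs. A match is a description of letters, and no match speaks only of this window. Elements elsewhere in either gene were not looked at.

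In later months the silica effect on Dbp was positive again. It was 0.88, -1.04, 0.84, 1.15, 0.17 and 0.65 on the log2 scale over the 6 months in time order, and it passed at 1, 3, 6 and 9 months (limma adjusted p = 0.0327, 0.00557, 0.0178 and 0.00179) and not at 12 or 18 months (0.710 and 0.0992). The effect on Arntl was -0.13, 0.22, -0.33, -0.61, -0.21 and -0.37 at the same months and passed at 6, 9 and 18 months (limma adjusted p = 0.0280, 1.22e-04 and 0.0234). The effects on Dbp and Arntl had opposite signs at each of the 6 months, and of these only month 3 had a negative value for Dbp and a positive one for Arntl. By the rat numbers in the labels, silica rats came before air rats at 3 months and after them at each of the other months. Number order and exposure therefore cannot be told apart within a month. The labels do not say whether the numbers follow the order of handling or collection, and their part in the Dbp result was not tested.

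**Figure D2:**
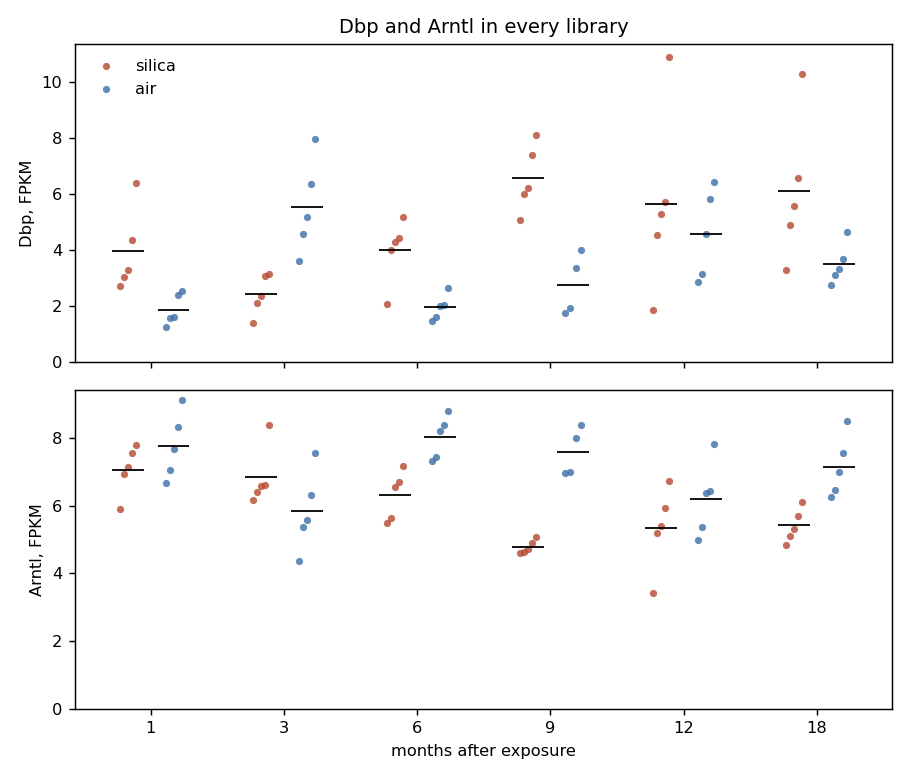
Dbp (upper panel) and Arntl (lower panel) in FPKM in every library by month after exposure, silica in red at the left and air in blue at the right of each month, sorted by value, with black bars at group means. For Dbp the silica points lie below the air points at 3 months (1.42 to 3.15 against 3.62 to 7.95 FPKM) and above them at 1 month (2.73 to 6.40 against 1.27 to 2.56 FPKM).

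LOC102553223 was the other entry that passed, and it is named although it has no gene symbol. The RefSeq table used here does not annotate it, and no role is given. It had 12.6, 13.2, 75.2, 1112 and 17114 FPKM in silica lungs at 3 months, against 4.00, 5.39, 10.6, 12.4 and 117 FPKM in air lungs. At 1 month it had 7.96, 9.17, 12.1, 25.8 and 37.5 FPKM in silica lungs, against 18.7, 143, 340.4, 1659.9 and 2618 FPKM in air lungs. Within a group the values spread widely, with 17114 FPKM in silica replicate 5 of 3 months, the library high in Cox8b, and silica and air overlapped at both months. The change of the silica effect was 8.21 ± 1.61 (95% interval 4.98 to 11.44; limma adjusted p = 0.00561), and 6.59 to 9.24 without any one library, the lowest being that without silica replicate 5 of 3 months (limma adjusted p = 0.0145). In a fit of the 20 libraries alone the call was lost (limma adjusted p = 0.130). At 6, 9, 12 and 18 months the effect was 0.03, -1.93, -0.58 and 0.59, and none passed.

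The remaining genes are given as values, since their change did not pass. The 25 gene symbols with the smallest p include Dbp, 12 with a positive and 12 with a negative change (limma adjusted p = 0.0934 to 0.224).

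**Figure D3:**
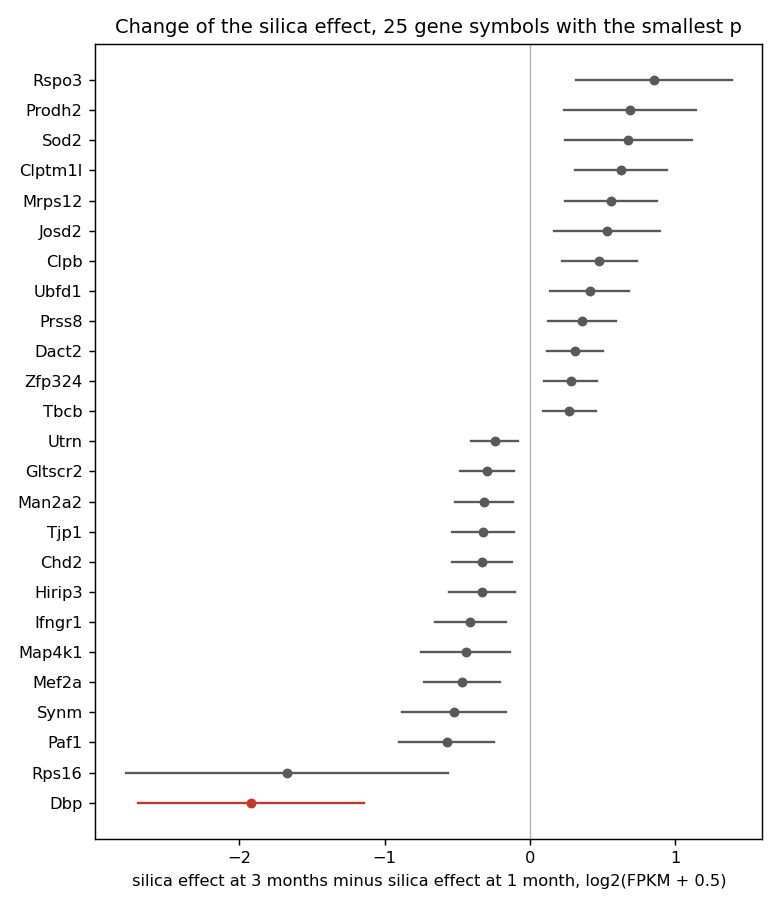
Change of the silica effect (3 months minus 1 month, log2(FPKM + 0.5)) for the 25 gene symbols with the smallest p, as points with 95% confidence intervals before adjustment. Dbp, in red, passed the threshold at -1.92 (-2.69 to -1.14), and the grey genes did not.

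Cd177, Sod2, Arg1 and Itgax, genes of neutrophils, oxidant defence and macrophages, were higher in silica lungs at both months and had larger estimated effects at 3 months, without a change that passed. Cd177, which marks neutrophils, had 38.6 to 50.4 FPKM (median 45.1) in silica lungs at 3 months, against 4.04 to 6.73 FPKM (median 5.32) in air lungs. Its 1-month values were 28.0 to 29.7 FPKM (median 29.2) in silica lungs, against 3.57 to 9.74 FPKM (median 6.57) in air lungs. All silica lungs lay above all air lungs at both months, and all silica lungs of 3 months above all silica lungs of 1 month. The effect was 2.98 ± 0.23 at 3 months and 2.102 ± 0.226 at 1 month (limma adjusted p = 2.60e-15 and 6.76e-10). The change was 0.87 ± 0.32 (95% interval 0.23 to 1.51), and did not pass (limma adjusted p = 0.245, unadjusted p = 0.00866; 0.105 to 0.430 over the alternatives). Outside the naming rule, the entries LOC103691058 and LOC100909700, which have no symbol, had changes of 1.08 ± 0.29 and 0.85 ± 0.31 (limma adjusted p = 0.126 and 0.245). A relation of either entry to Cd177 was not examined. LOC103691058 passed in the fit of the 20 libraries alone (limma adjusted p = 0.00787) and without silica replicate 3 of 12 months (0.0413).

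Sod2, the mitochondrial superoxide dismutase, had 52.4, 53.7, 55.5, 55.9 and 62.7 FPKM in silica lungs at 3 months, against 18.5, 21.2, 21.4, 22.8 and 25.6 FPKM in air lungs. In the 1-month lungs it had 39.4, 39.5, 41.2, 42.4 and 44.1 FPKM in silica lungs, against 20.5, 23.7, 24.7, 29.2 and 33.1 FPKM in air lungs. The groups did not overlap at either month, and the effect was 1.34 ± 0.15 at 3 months and 0.66 ± 0.15 at 1 month (limma adjusted p = 3.07e-09 and 0.00382). Its change was 0.68 ± 0.22 (95% interval 0.24 to 1.11; limma adjusted p = 0.221). Arg1, the arginase of alternatively activated macrophages, had 9.36 to 12.3 FPKM in silica lungs at 3 months, against 3.35 to 5.20 FPKM in air lungs. At 1 month it had 8.10 to 9.53 FPKM in silica lungs, against 4.58 to 6.60 FPKM in air lungs. Its effect was 1.28 ± 0.18 at 3 months and 0.57 ± 0.18 at 1 month (limma adjusted p = 7.42e-07 and 0.0378), with a change of 0.71 ± 0.26 (0.245). The 1-month call of Arg1 was lost in 10 of 29 alternatives, 7 of which left out 1 library.

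Itgax, the CD11c integrin of macrophages and dendritic cells, had 8.13 to 10.2 FPKM in silica lungs at 3 months, against 3.92 to 4.82 FPKM in air lungs, and 6.92 to 8.15 FPKM in silica lungs at 1 month, against 3.87 to 4.77 FPKM in air lungs. Its air values were nearly the same at both months, and the change of its effect was 0.31 ± 0.19 (limma adjusted p = 0.578). Esr1, the oestrogen receptor gene, did not pass at either month. It had 0.363 to 0.730 FPKM in silica lungs at 3 months, against 0.238 to 0.755 FPKM in air lungs, and 0.173 to 0.522 FPKM in silica lungs at 1 month, against 0.203 to 0.499 FPKM in air lungs. The change of its effect was 0.19 ± 0.39 (0.923). Its effect was -0.00, 0.18, 1.68, 2.57, 2.40 and 2.01 over the 6 months in time order, and it passed at each month from 6 on. No air library of the series and no library of 1 or 3 months reached 1 FPKM for Esr1. It entered the test only through silica libraries of these later months, so its later calls are not independent of the filter.

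In Rspo3, Clptm1l, Clpb and Prodh2 silica lungs were higher than air lungs at 3 months, and the effect at 1 month did not pass. Rspo3, a secreted amplifier of Wnt signalling, had 0.542, 0.558, 0.715, 0.992 and 1.02 FPKM in silica lungs at 3 months, against 0.0927, 0.156, 0.159, 0.277 and 0.310 FPKM in air lungs. Its 1-month values were 0.0663, 0.151, 0.224, 0.366 and 0.478 FPKM in silica lungs, against 0.0737, 0.134, 0.215, 0.351 and 0.548 FPKM in air lungs. The silica lungs of 3 months lay above all air lungs of that month and all silica lungs of 1 month, and 1 air lung of 1 month, at 0.548 FPKM, reached into their range. The effect was 0.85 ± 0.19 at 3 months (limma adjusted p = 8.85e-04) and -0.01 ± 0.19 at 1 month (0.998), on a scale that understates changes at such levels. Its change was 0.86 ± 0.27 (95% interval 0.32 to 1.39; limma adjusted p = 0.208). At 6, 9, 12 and 18 months the effect was 0.98, 1.18, 1.20 and 0.91, and it passed at each. No air library of the series reached 1 FPKM for Rspo3 (highest 0.801 FPKM), so it entered the test through silica libraries alone. Its calls of silica above air are therefore not independent of the filter.

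Clptm1l, a transmembrane protein of the endoplasmic reticulum, had 5.14 to 6.98 FPKM in silica lungs at 3 months, against 3.21 to 4.92 FPKM in air lungs, and 4.37 to 6.53 FPKM in silica lungs at 1 month, against 5.42 to 6.58 FPKM in air lungs. Here the air lungs moved, by -0.53 ± 0.11 at 3 months against 1 month (limma adjusted p = 0.00216), and the silica lungs stood at 0.09 ± 0.11 (0.858). The change of the effect was 0.63 ± 0.16 (limma adjusted p = 0.0934), the smallest p among symbols after Dbp. It passed without silica replicate 1 of 1 month, without air replicate 5 of 3 months and without silica replicate 3 of 12 months. At 6, 9, 12 and 18 months its effect was -0.03, 0.28, 0.02 and 0.16, none of which passed. Clpb, a mitochondrial protein disaggregase, had 10.5 to 13.6 FPKM in silica lungs at 3 months, against 6.15 to 8.72 FPKM in air lungs, and 9.98 to 11.6 FPKM in silica lungs at 1 month, against 8.81 to 10.2 FPKM in air lungs. Its effect was 0.65 ± 0.09 at 3 months (limma adjusted p = 5.27e-07) and 0.17 ± 0.09 at 1 month (0.250), with a change of 0.48 ± 0.13 (0.126).

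Prodh2, which degrades hydroxyproline released from collagen, had 3.23 to 5.41 FPKM in silica lungs at 3 months, against 1.53 to 3.25 FPKM in air lungs. In the 1-month lungs it had 4.21 to 5.10 FPKM in silica lungs, against 3.51 to 4.94 FPKM in air lungs. Its air value was lower at 3 months than at 1 month by a log2 change of -0.77 ± 0.16 (limma adjusted p = 0.00214), and the change of its silica effect was 0.69 ± 0.23 (0.221). The other positive changes among the 25 were those of Mrps12, a mitochondrial ribosomal protein (0.56), the deubiquitinase gene Josd2 (0.53), Ubfd1 (0.41), the membrane serine protease gene Prss8 (0.36), Dact2 (0.31), Zfp324 (0.28) and Tbcb, a tubulin folding cofactor (0.27). Of these, Mrps12, Josd2, Ubfd1 and Prss8 were higher in silica lungs than in air lungs at 3 months (limma adjusted p = 0.00464, 0.00284, 3.38e-04 and 6.63e-04) and had effects of -0.13, -0.01, 0.05 and 0.02 at 1 month.

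Among the negative changes, Ifngr1, Mef2a and Paf1 were higher in silica lungs at 1 month, their effect at 3 months did not pass, and their air values were higher at 3 months than at 1 month. Ifngr1, the ligand-binding chain of the interferon-gamma receptor, had 22.1, 25.6, 28.1, 28.9 and 30.7 FPKM in silica lungs at 3 months, against 21.1, 25.6, 28.1, 29.6 and 29.7 FPKM in air lungs. At 1 month it had 23.3, 23.4, 25.6, 27.8 and 28.2 FPKM in silica lungs, against 16.2, 18.9, 19.2, 19.7 and 21.1 FPKM in air lungs. The air lungs of 1 month stood below the other 3 groups, which overlapped each other. Its effect was 0.01 ± 0.09 at 3 months (limma adjusted p = 0.928) and 0.42 ± 0.09 at 1 month (0.00112). Its change was -0.41 ± 0.12 (95% interval -0.66 to -0.17; limma adjusted p = 0.169), and air lungs differed by 0.48 ± 0.09 at 3 months against 1 month (3.94e-04). At 6, 9, 12 and 18 months its effect was 0.16, 0.22, 0.27 and 0.21. It passed at 12 months (limma adjusted p = 0.0192) and not at 6, 9 or 18 months.

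Mef2a, a transcription factor of muscle and other cells, had 14.7 to 19.4 FPKM in silica lungs at 3 months, against 16.2 to 21.6 FPKM in air lungs, and 15.6 to 17.6 FPKM in silica lungs at 1 month, against 10.5 to 15.8 FPKM in air lungs. Its effect was -0.11 ± 0.09 at 3 months and 0.36 ± 0.09 at 1 month (limma adjusted p = 0.423 and 0.00915), the change was -0.47 ± 0.13 (0.126), and air lungs differed by 0.58 ± 0.09 between months (7.99e-05). The 1-month call of Mef2a was lost without air replicate 2 and under either rescaling (adjusted p = 0.0635 to 0.110). Paf1, a subunit of an RNA polymerase elongation complex, had effects of -0.10 ± 0.11 at 3 months and 0.47 ± 0.11 at 1 month (limma adjusted p = 0.583 and 0.00607) and a change of -0.57 ± 0.16 (0.132). Map4k1, a kinase of blood cells, had effects of 0.02 ± 0.11 and 0.46 ± 0.11 at the same months (limma adjusted p = 0.917 and 0.00390) and a change of -0.44 ± 0.15 (0.224). The effect on Paf1 passed again at 12 months (0.39, limma adjusted p = 0.00985) and not at 6, 9 or 18 months.

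Rps16, a small ribosomal subunit protein gene, had the widest spread of these. It had 11.5, 22.6, 27.3, 42.9 and 45.2 FPKM in silica lungs at 3 months, against 14.8, 22.0, 42.8, 49.7 and 51.5 FPKM in air lungs. Its 1-month values were 14.1, 15.4, 29.3, 30.1 and 33.2 FPKM in silica lungs, against 5.74, 7.62, 7.92, 8.28 and 14.0 FPKM in air lungs. Silica and air overlapped at 3 months and not at 1 month. The change was -1.67 ± 0.55 (95% interval -2.78 to -0.57; limma adjusted p = 0.221). The rise at 1 month (1.41 ± 0.39, limma adjusted p = 0.0154) was lost without air replicate 2 (0.0650) or silica replicate 5 (0.0589). The silica effect on Rps16 passed again at 12 months (1.34, limma adjusted p = 0.00899) and not at 6, 9 or 18 months. Ribosomal protein genes have near-identical pseudogene copies, so reads may be split between them. The ribosomal list of 15 tested genes held no change that passed, with 10 positive and 5 negative changes (median 0.04; 7 and 8, median -0.04, after quantile normalization). Besides Rps16, silica was above air for Rpl28 at 1 month (0.27, limma adjusted p = 0.0290) and Rpl18 at 3 months (0.30, limma adjusted p = 0.00947), both named after their values were seen.

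The remaining negative changes were those of Synm, an intermediate filament protein (-0.52), the chromatin genes Hirip3 and Chd2 (both -0.33), Tjp1, the tight junction scaffold ZO-1 (-0.32), the Golgi mannosidase gene Man2a2 (-0.32), the nucleolar gene Gltscr2 (-0.30) and Utrn, utrophin (-0.24). Air lungs were higher at 3 months than at 1 month in all of them but Hirip3 (limma adjusted p = 0.00497 to 0.0285, and 0.0655 for Hirip3), and these calls other than that of Tjp1 were each lost in 2 to 8 of 29 alternatives. Synm, Tjp1 and Utrn were lower in silica lungs than in air lungs at 3 months (-0.43, -0.27 and -0.20; limma adjusted p = 0.0142, 0.00908 and 0.0118) and had effects of 0.09, 0.05 and 0.04 at 1 month. Tjp1 had 24.3 to 28.2 FPKM in silica lungs at 3 months, against 27.0 to 35.0 FPKM in air lungs, and 24.9 to 28.0 FPKM in silica lungs at 1 month, against 23.5 to 30.7 FPKM in air lungs.

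**Figure D4:**
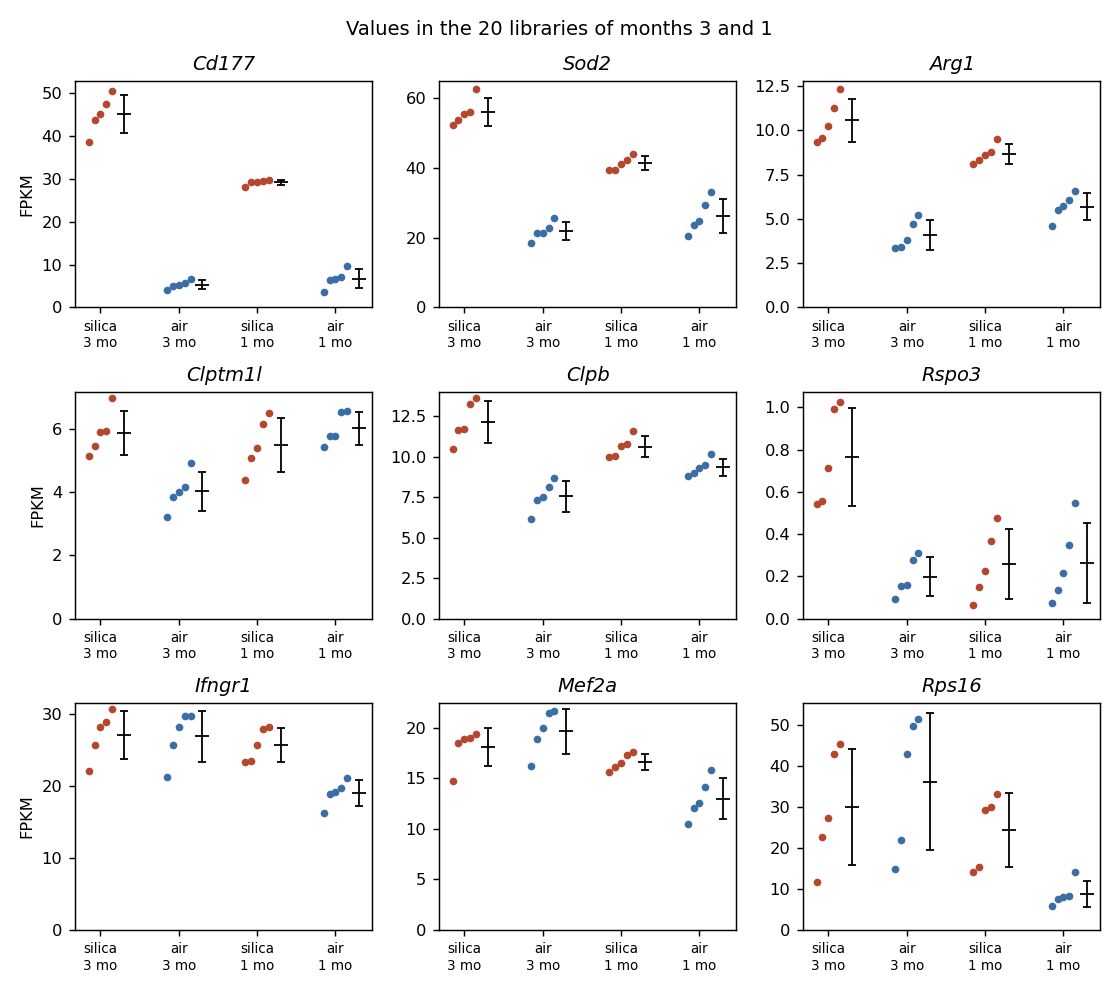
FPKM of 9 genes in the 20 libraries, silica in red and air in blue, 3 months left of 1 month, points sorted by value within a group, with mean and SD (n = 5) beside them. In Cd177, Sod2 and Arg1 silica lies above air at both months, in Rspo3 the silica group of 3 months is highest (0.542 to 1.02 FPKM), in Ifngr1 the air group of 1 month is lowest (16.2 to 21.1 FPKM), and in Rps16 the air group of 1 month (5.74 to 14.0 FPKM) overlaps the silica group of 3 months, which starts at 11.5 FPKM.

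Seen by exposure, lungs that breathed air differed between months in more genes than lungs that breathed silica. In silica lungs 0 genes passed for 3 months against 1 month (0%), with a smallest limma adjusted p of 0.109, 100 genes at an unadjusted p under 0.05, 12 calls in a fit of the 20 libraries alone and 6 without silica replicate 3 of 12 months. In air lungs 57 genes passed (4.46%), 37 higher (2.90%) and 20 lower (1.56%) at 3 months, and 233 at an unadjusted p under 0.05. The 5 libraries of each month did not overlap in 38 genes among silica lungs (2.97%) and in 55 genes among air lungs (4.30%). Quantile normalization gave 39 higher and 38 lower, and the 20-library fit 27 and 23. The count was 27 without air replicate 2 of 1 month, and 31 and 35 without air replicate 3 or 4 of 3 months. That the 2 exposures differed in this way is the same contrast as the change of the silica effect, which passed in 2 genes. Air lungs of 1 month stood apart from all 24 other air libraries of the series in 6 of 1278 tested genes, below them in 5 and above in 1. Air lungs of 3 months did so in 3 of 1278 genes, below in each. By the same measure air lungs of 9 months stood below in 1 gene, those of 18 months above in 2, and those of 6 and 12 months apart in 0. The mucosal glycoprotein gene Dmbt1 and the antiviral gene Ifitm3 were below in the air lungs of 1 month. Dmbt1 had 0.597 to 0.865 FPKM in air lungs at 3 months and 0.361 to 0.531 FPKM in air lungs at 1 month.

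Genes were also read by function in 27 lists with 235 distinct tested genes, and outside the clock list none held a gene whose effect changed past the threshold. Over all tested genes 51.2% had a positive change, 15.9% were called higher and 2.35% lower at 3 months, and 8.45% were called higher and 0.391% lower at 1 month. The lysosome list had positive changes in 10 of 10 members (median 0.17, against 0.0059 over all tested genes), and in 9 of 10 after quantile normalization (median 0.10). Lists overlap, and of these members Napsa also stood on the alveolar type 2 related list. Blvrb, an enzyme of haem breakdown and not a lysosomal protein, also stood on the oxidant, haem and iron list. The count is thus one of list members and not of lysosomal proteins. At 3 months 8 of the 10 were higher in silica lungs, and at 1 month 4 were. Hps5, needed for lysosome-related organelles, had 2.92 to 3.29 FPKM in silica lungs at 3 months, against 2.03 to 2.66 FPKM in air lungs, and a change of 0.19 ± 0.08. The adaptor subunit gene Ap3s2 had a change of 0.18 ± 0.12 and Ctsc, cathepsin C, one of 0.15 ± 0.11 (limma adjusted p = 0.385, 0.612 and 0.612). After median centring the lysosome calls were 7 at 3 months and 1 at 1 month, and after quantile normalization 7 and 3.

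Receptors of myeloid cells had positive changes in 14 of 20 genes (median 0.10), with 11 higher and 1 lower at 3 months and 7 higher at 1 month (3 higher and 1 lower after median centring, 4 and 1 after quantile normalization). C5ar2, a receptor of complement C5a, had 5.18, 6.44, 7.05, 7.49 and 8.01 FPKM in silica lungs at 3 months, against 3.23, 3.46, 3.97, 4.02 and 4.47 FPKM in air lungs. In the 1-month lungs it had 5.18, 5.49, 5.85, 6.22 and 6.39 FPKM in silica lungs, against 3.99, 4.45, 4.53, 4.71 and 4.94 FPKM in air lungs. The groups did not overlap at either month, and the change was 0.42 ± 0.15 (limma adjusted p = 0.245). Its 1-month call (0.0452) was lost in 11 of 29 alternatives. Cd33, a sialic acid receptor, had a change of 0.52 ± 0.24 and P2ry2, a nucleotide receptor, one of 0.33 ± 0.22 (limma adjusted p = 0.435 and 0.612).

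The neutrophil and CEACAM list had 3 tested genes with positive changes in each, of which Cd177 was given above. Ceacam10 had 4.24 to 5.78 FPKM in silica lungs at 3 months, against 1.57 to 1.90 FPKM in air lungs, and 2.53 to 4.23 FPKM in silica lungs at 1 month, against 1.42 to 2.69 FPKM in air lungs. Its change was 0.63 ± 0.29 (limma adjusted p = 0.435), while the adhesion gene Ceacam1 stood at 0.00 ± 0.11. Leukocyte integrins and adhesion genes had positive changes in 3 of 8 (median -0.08), with 0.45 ± 0.24 for the urokinase receptor gene Plaur and -0.48 ± 0.17 for Spn, the leukocyte sialoglycoprotein CD43 (limma adjusted p = 0.533 and 0.224). At 3 months 4 of the 8 were higher in silica lungs and at 1 month 2, against 15.9% and 8.45% of all tested genes. These were 3 and 2 after median centring and 3 and 1 after quantile normalization.

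Epithelial lists held no gene whose change passed. The alveolar type 2 related list, with Lpcat1 of surfactant lipid synthesis, Napsa and Cebpa, had 3 of 3 genes higher in silica lungs at both months and changes of 0.21, 0.20 and 0.11 (limma adjusted p = 0.612 to 0.855), and Napsa turned to -0.10 after quantile normalization. At 1 month Lpcat1 remained called in all 29 alternatives, while the call of Napsa was lost in 3, among them median centring, and that of Cebpa in 5, among them both rescalings. Airway and surface epithelium genes had positive changes in 5 of 10 (median 0.0014), with 5 higher at 3 months and 4 at 1 month, against 15.9% and 8.45% of all tested genes. The calls were 4 at 3 months and 2 at 1 month after median centring, and 3 and 2 after quantile normalization. The mucosal chemokine gene Cxcl17 had 60.9 to 80.4 FPKM in silica lungs at 3 months, against 33.0 to 40.3 FPKM in air lungs, and a change of 0.28 ± 0.15 (0.501). Cilia genes had negative changes in 6 of 6 (median -0.10), from -0.37 for the dynein assembly gene Dnaaf3 to -0.01, and in 5 of 6 after quantile normalization. None of them was called at either month.

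Endothelial genes had negative changes in 6 of 8 (median -0.17). At 3 months 1 of the 8 was lower in silica lungs, against 2.35% of all tested genes, and at 1 month 0 were called. The lower calls at 3 months were 2 after median centring and 4 after quantile normalization, where 121 and 132 of all 1278 tested genes were lower. At 1 month 1 was lower after median centring and 0 after quantile normalization. Myct1, an endothelial membrane protein, had 6.60, 7.11, 7.35, 7.78 and 7.97 FPKM in silica lungs at 3 months, against 9.10, 9.30, 9.53, 9.88 and 10.02 FPKM in air lungs. At 1 month it had 8.08, 9.09, 9.75, 9.89 and 10.4 FPKM in silica lungs, against 7.25, 8.20, 8.53, 9.27 and 9.95 FPKM in air lungs. Silica lungs of 3 months lay below both air lungs of that month and silica lungs of 1 month, and the change was -0.48 ± 0.17 (limma adjusted p = 0.245). Its fall at 3 months (-0.36 ± 0.12, limma adjusted p = 0.0362) was lost when any of silica replicates 1, 2 and 4 or air replicates 1, 3 and 5 of that month was left out (0.0512 to 0.0907 over the alternatives that lost it). The prostacyclin receptor gene Ptgir had a change of -0.36 ± 0.18 and the Notch ligand gene Dll1 one of 0.63 ± 0.30 (0.489 and 0.484).

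Matrix and TGF-beta genes had negative changes in 8 of 11 (median -0.13), with 3 higher and 1 lower at 3 months and 3 higher at 1 month. This split turned with scaling. At 3 months it was 2 higher and 4 lower after median centring and 2 and 5 after quantile normalization, and at 1 month 1 higher and 1 lower after either. Htra1, a secreted protease that cuts matrix and TGF-beta family proteins, had 7.81 to 12.6 FPKM in silica lungs at 3 months, against 7.23 to 11.4 FPKM in air lungs, and 8.44 to 11.4 FPKM in silica lungs at 1 month, against 5.62 to 7.69 FPKM in air lungs. Its effect was 0.07 ± 0.13 at 3 months and 0.58 ± 0.13 at 1 month (limma adjusted p = 0.772 and 0.00272), and the change was -0.51 ± 0.18 (0.229). Ltbp4, which holds latent TGF-beta, and the laminin gene Lama2 had changes of -0.36 ± 0.19 and -0.32 ± 0.17 (limma adjusted p = 0.525 and 0.533). The growth factor receptor and cAMP list had positive changes in 5 of 9 (median 0.11), with -0.45 ± 0.18 for the adenylyl cyclase gene Adcy2 and 0.14 ± 0.10 for Igf2r. Adcy2 was lower in silica lungs at 3 months (-0.46 ± 0.13, limma adjusted p = 0.00931) and stood at -0.01 ± 0.13 at 1 month.

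Positive changes in the metabolic lists are given beside a share of 51.2% over all tested genes. Lipid handling and fat genes had positive changes in 8 of 9 (median 0.16, 7 of 9 after quantile normalization), with Nr1h2, the liver X receptor beta, at 0.16 ± 0.09, Dgat2 of triglyceride synthesis at 0.19 ± 0.22 and Mogat2 at 0.18 ± 0.24. Arginine and nucleotide genes did so in 5 of 6 (median 0.15), and oxidant, haem and iron genes in 5 of 7 (median 0.16; 4 of 7 after quantile normalization), with Hpx, the haem carrier hemopexin, at 0.70 ± 0.61 and Sepw1 at -0.18 ± 0.13. The glycolysis and pyruvate list had positive changes in 3 of 5 (median 0.0088). In it lactate dehydrogenase Ldha stood at 0.32 ± 0.14, the pyruvate carrier gene Mpc1 at 0.24 ± 0.12 and Gpi at -0.14 ± 0.11 (limma adjusted p = 0.410, 0.487 and 0.642). Solute carriers had positive changes in 6 of 7 (median 0.08), led by Slco3a1 at 0.35 ± 0.20.

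Lists of signalling, stress and proliferation had median changes between -0.08 and 0.04. NF-kB and TNF genes had positive changes in 2 of 6 (median -0.08), with Relb at 0.22 ± 0.15, Bcl3 at -0.26 ± 0.18 and the inhibitor gene Nfkbib at -0.12 ± 0.15. Interferon and inflammasome genes had positive changes in 6 of 11 (median 0.03), led by Trim30 at 0.24 ± 0.12 and Isg20 at 0.27 ± 0.18. Cell cycle genes did so in 5 of 8 (median 0.03), with the spindle genes Kif22 and Prc1 at 0.32 ± 0.21 and 0.30 ± 0.20 and the proliferation marker gene Mki67 at 0.29 ± 0.19. Mki67 had 2.34 to 2.88 FPKM in silica lungs at 3 months, against 1.35 to 1.61 FPKM in air lungs, and 2.16 to 2.70 FPKM in silica lungs at 1 month, against 1.64 to 2.12 FPKM in air lungs. Immediate early and stress genes had positive changes in 2 of 6 (median -0.06), with Klf13 at -0.51 ± 0.21 and adrenomedullin, Adm, at 0.25 ± 0.19. Glucocorticoid-induced genes stood at 0.01 to 0.11, with Cited2 higher in silica lungs at both months (0.69 and 0.58; limma adjusted p = 4.16e-05 and 0.00165). Zinc finger genes had positive changes in 20 of 51 (median -0.02), from which Zfp51 at 0.36 ± 0.15 and Zfp667 at -0.29 ± 0.13 had the smallest p after Zfp324.

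Lists of lymphocyte, blood and muscle genes held no change that passed. B cell markers had positive changes in 1 of 4 genes (median -0.42). T and natural killer cell markers had negative changes in 5 of 5 (median -0.08; 4 of 5 after quantile normalization), with Il21r at -0.36 ± 0.22 and Nkg7 at -0.23 ± 0.20. Among them Itgal was higher in silica lungs at 3 months (0.26, limma adjusted p = 0.0345) and at 1 month (0.34, limma adjusted p = 0.00927). The 3-month call was lost in 8 of 29 alternatives, quantile normalization among them, and the 1-month call in 1, which was quantile normalization. The erythrocyte genes Hbb, Hbb-b1 and Ahsp summed to 1004 to 1503 FPKM in silica lungs at 3 months, 1379 to 2970 FPKM in air lungs at 3 months, 1276 to 1780 FPKM in silica lungs at 1 month and 1613 to 2203 FPKM in air lungs at 1 month. Their changes were -0.00, 0.05 and -0.24, and beta globin copies can share reads. Muscle and heart genes had changes of 0.10 for Mybpc2, -0.54 for Csrp3 and -0.16 for Cox8b (limma adjusted p = 0.881 to 0.974). The part of blood, muscle or lymphocyte content in the other results was not tested.

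**Figure D5:**
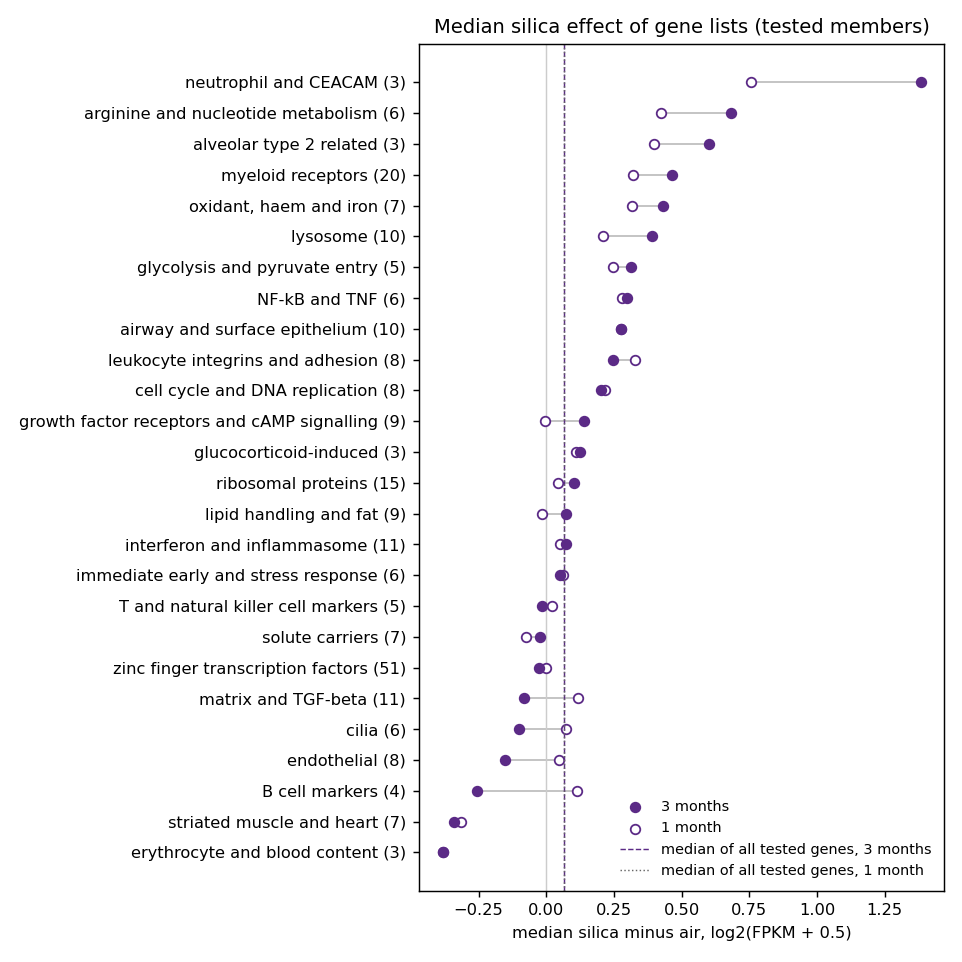
Median silica effect (silica minus air, log2(FPKM + 0.5)) of the tested members of 26 gene lists, with the number of members in brackets, at 3 months (filled) and 1 month (open), and dashed and dotted lines at the medians of all tested genes, which nearly coincide (0.065 and 0.066). The neutrophil and CEACAM list stands farthest right at both months. The endothelial, cilia, matrix and B cell lists are among those with a lower median at 3 months than at 1 month. The leukocyte integrin and adhesion list is another (0.25 and 0.33), as are further lists with smaller differences.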

How the data were processed

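Lung RNA of 59 rats was sequenced from TruSeq Stranded Total RNA libraries with Ribo-Zero Gold, per the labels' protocols. The submitters' processing notes name, with no role, Cufflinks 2.1.1, Bowtie2 2.2.9 and TopHat2 2.0.9, and also Trimmomatic 0.35 and bcl2fastq 2.19. Of the genome build, no name is given in the sources used here. As deposited, the authors' table held FPKM values, 1 column per library, and 0 columns were unmatched. The last of 2888 entries was incomplete and left out.

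FPKM are not counts, so limma 3.58.1 in R 4.3.3 was fitted to log2(FPKM + 0.5) with an intensity trend, all 12 groups in 1 fit (47 residual degrees of freedom) and no covariate. Genes with at least 1 FPKM in at least 4 libraries were tested, with Benjamini-Hochberg adjusted p and a threshold of 0.05. Fold changes on this scale understate changes of low genes. The fit was tested on simulated data. Depth is not stated in the files. It was estimated relative to other libraries from 261 low entries, in which 63.7% of 1997 values lay within log2 0.1 of 1 step. Pairs of replicates had a Pearson r of 0.920 to 0.983 and none were identical.

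Named genes were those called, filled up to 25 symbols by smallest p, up to 3 per list by smallest p, and Dbp, Arntl, Cd177, Sod2, Arg1, Itgax and Esr1 always. Members and lists were chosen with earlier results of these data known, so no list is independent support. Alternatives were other pseudocounts, filters and scalings, a fit of 20 libraries, no trend, and leaving out each library. Python 3.11.15 drew the plots with matplotlib 3.10.9. One withheld item is not reported here.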

Additional observations from a re-analysis of the deposited data

Results flagged for a closer look

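The change of the silica effect between months, tested as an interaction, passed for Dbp (-1.92) and LOC102553223 (8.21), as reported above. In 28 of 400 pairs of a named gene and a group (7%), the highest or lowest of the 5 libraries lay far from the nearest other by Dixon's criterion, which chance meets in about 5% of pairs.

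Silica replicate 5 of 3 months held several of them. It was high in the heart and muscle genes Cox8b (42.6 FPKM, against 4.04 to 7.73 FPKM in the rest of the group) and Csrp3 (5.42, against 0.479 to 1.13 FPKM). It was low in Mef2a (14.7 FPKM), Mrps12 (8.28), Tjp1 (24.3), Tbcb (5.40), Napsa (100.7), Sepw1 (9.79) and Igf2r (20.9 FPKM). The same library held the highest value of LOC102553223 (17114 FPKM). The Dbp change was -1.89 without this library (limma adjusted p = 0.0145). Air replicate 1 of 3 months was low in Tjp1 (27.0 FPKM), Utrn (30.4) and Ceacam1 (7.53) and high in Hbb (2567 FPKM, against 1257 to 1434 FPKM).

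Single values stood out in the other 3-month libraries for Man2a2 (4.64 FPKM) and Dmbt1 (0.865) in air replicate 2, Cxcl17 in air replicate 3 (33.0) and Arntl in silica replicate 1 (8.39 FPKM). At 1 month silica replicate 4 was high in Sertad1 (15.1 FPKM), Prc1 (4.86) and Nr1h2 (20.3), silica replicate 5 low in Nfkbib (2.91) and Zfp667 (0.941), silica replicate 1 low in Kif22 (0.871) and silica replicate 2 high in Ahsp (34.0 FPKM, against 2.85 to 4.03 FPKM). Among air lungs of 1 month, replicate 2 was high in Ceacam10 (2.69 FPKM) and Zfp51 (2.79), replicate 4 high in Mki67 (2.12) and replicate 1 low in Hpx (1.23 FPKM).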

How the results depend on the processing

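The call of Dbp held in all 29 alternatives (adjusted p = 0.00201 to 0.0295), with changes of -2.17 to -1.68. LOC102553223 lost its call in the fit of the 20 libraries alone (8.21, adjusted p = 0.130). The number of changed effects was 2 to 8 without 1 library and 5 without silica replicate 3 of 12 months, an alternative chosen after seeing the data. Calls were 163 to 258 without 1 library at 3 months, and 44 to 136 at 1 month, where median centring left 65. For 3 months against 1 month they were 0 to 0 in silica lungs without 1 library of these months, 12 in the 20-library fit and 6 without silica replicate 3 of 12 months, and 27 to 77 in air lungs without 1 library. The cause was not tested. Of calls of named genes, 33 of 46 at 3 months, 16 of 31 at 1 month and 9 of 21 in air lungs held in every alternative.

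Under quantile normalization the change turned in sign for Sgk1 (-0.0376), Napsa (-0.0991) and Hbb-b1 (-0.174). Without 1 library, changes near 0 ran from -0.036 to 0.0784 for Sult1a1, -0.0365 to 0.0585 for Sgk1, -0.0728 to 0.0559 for Ceacam1, -0.180 to 0.0320 for Nfkbib, -0.683 to 0.383 for Ahsp, -0.0664 to 0.341 for Hbb-b1, -0.0699 to 0.188 for Hbb and -0.736 to 0.156 for Cox8b. No paired analysis was possible because the labels name rats by numbers that do not recur between groups. Replicates 1 to 5 are names in accession order, which within each group is also the order of rising rat number, and they pair no rats between groups. Depth was estimated only relative to other libraries, so no counting interval is given, and a median SE of 0.141 limits which changes could pass.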
